A study of Mus musculus with 7 samples.

Results

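The genes described here are 5 mouse genes listed for extracellular nucleotide breakdown: Nt5e (CD73), Entpd1 (CD39), Enpp1, Cd38 and Entpd5. Of these, Entpd5 encodes an enzyme that acts in the endoplasmic reticulum and can be secreted. The 5 were taken by symbol from 53465 Ensembl gene IDs, and all were found, had reads in each of the 7 libraries and passed the low-count filter. The RNA came from CD4+CD25+ cells that had been flow-sorted out of mouse liver, a gate commonly used for regulatory T cells (Treg). None of the 5 shares exon bases with another annotated gene. KO_MCD denotes CD73 KO mice given a methionine/choline-deficient diet (MCD) over 4 weeks (3 libraries). WT_MCD denotes C57BL/6 wild type mice on the same deficient diet and for the same time (2 libraries). WT_NCD denotes C57BL/6 wild type mice kept for 4 weeks on normal control diet (2 libraries). Knockout mice on the control diet were not analysed here, so genotype and diet could not be crossed. The sources used here do not give the deleted part of Nt5e, the tissues it is deleted in, or the animals' ages and sexes. Whether the replicates of a group are separate animals is not in the labels, so a p-value here reflects the spread among libraries alone, and that spread may be technical.

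ATP released by stressed cells acts as a danger signal, and surface enzymes convert it stepwise to adenosine, which dampens T cells. CD39 removes phosphates from ATP and ADP to leave AMP, and CD73 removes the last phosphate of AMP to give adenosine. CD38, which consumes NAD, and ENPP1, which cleaves ATP and ADP-ribose, supply AMP by another route, so that CD73 is the shared last step. Mouse Treg are known to carry both CD39 and CD73, and the pair is a known way by which they suppress other T cells. The methionine/choline-deficient diet is widely used to give mice fatty liver with inflammation.

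Each library held between 19731501 and 24398738 counts, and 14784 genes entered the tests. Levels are CPM, counts scaled by TMM-adjusted library size, and a gene with no reads in a library may still stand at up to 0.129 to 0.158 CPM (3 counts, counting error only). The 7 CD4 and Treg markers summed to 2199 to 2642 CPM in KO_MCD, 1332 to 3528 in WT_MCD and 2130 to 3900 in WT_NCD, and none of the 7 was at 0 throughout. The 12 macrophage and Kupffer cell markers were also present throughout, at 7408 to 12697 CPM in KO_MCD, against sums of 2416 and 32876 CPM in WT_MCD and of 1179 and 10792 CPM in WT_NCD. The 10 B and plasma cell markers summed to 1728 to 3209 CPM over the libraries, and the 8 hepatocyte markers to 0 to 37.7 CPM. Within each wild type group the macrophage sum thus differed widely, and WT_MCD replicate 2 held the most of it. Each fold change below was recomputed with each library left out. The 3 comparisons share libraries and are not independent of each other.

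Read per kilobase of annotated exon, the members stood in the same order in both wild type groups, and Nt5e took the lowest place in the knockout. In KO_MCD the mean levels were 37.2 ± 4.15 CPM per kb for Cd38, 27.9 ± 3.47 for Entpd1, 12.2 ± 2.78 for Entpd5, 1.59 ± 0.858 for Enpp1 and 1.04 ± 0.564 for Nt5e (SD, n = 3). In WT_MCD they were 47.0 ± 6.50 for Cd38, 32.9 ± 14.0 for Entpd1, 15.4 ± 7.33 for Nt5e, 10.5 ± 1.26 for Entpd5 and 2.27 ± 0.750 for Enpp1 (SD, n = 2). In WT_NCD they were 37.7 ± 0.858 for Cd38, 35.2 ± 10.03 for Entpd1, 28.1 ± 0.161 for Nt5e, 21.99 ± 3.88 for Entpd5 and 2.91 ± 0.449 for Enpp1 (SD, n = 2). Neighbours in these orders whose libraries overlapped were Enpp1 and Nt5e in KO_MCD. In WT_MCD they were Cd38 and Entpd1, and Nt5e and Entpd5. In WT_NCD they were Cd38 and Entpd1, and Entpd1 and Nt5e. All other neighbouring pairs were apart in every library of their group. The NAD-consuming enzyme and the first ATP-degrading enzyme therefore headed the list in each group, and Enpp1 was the least of the wild type transcripts.

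**Figure D1:**
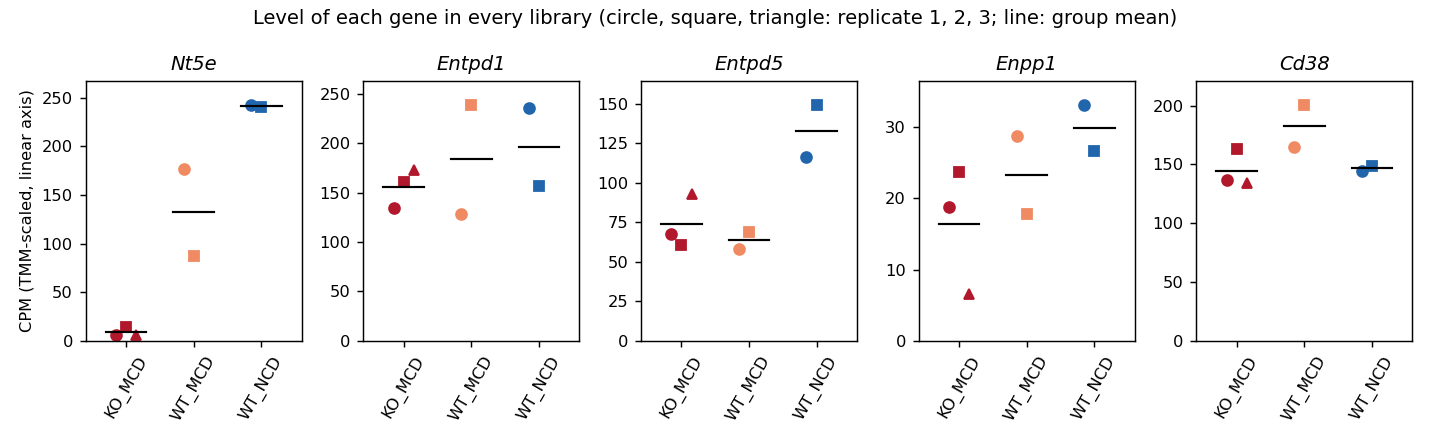
Level of each of the 5 genes in CPM (linear vertical axes from 0) in the KO_MCD, WT_MCD and WT_NCD groups. Each point is 1 library and each bar the group mean. Nt5e lies between 5.88 and 14.5 CPM in the KO_MCD libraries and between 87.6 and 243 CPM in the wild type libraries, while the points of the other genes lie closer together.

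Nt5e (ENSMUSG00000032420; GRCm38 chr9:88327197-88372092, plus strand) encodes CD73, the deleted enzyme, and its transcript was far lower in the knockout libraries. It was read at 5.88, 14.5 and 6.43 CPM in KO_MCD, against 177 and 87.6 in WT_MCD and 243 and 241 in WT_NCD. Every KO_MCD library lay below every wild type library, and the WT_MCD libraries lay below both WT_NCD libraries. The KO_MCD values rest on 121, 321 and 135 reads, with exact 95% Poisson intervals of 100.4 to 145, 287 to 358 and 113 to 159.8 reads, which cover counting error only. The transcript was thus above the detection floor in all 3 knockout libraries, and KO_MCD replicate 2 lay above the other 2 by more than counting error. Which exons these reads cover cannot be read from gene totals.

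The mean of Nt5e in KO_MCD was 6.77% of that in WT_MCD, at 8.95 ± 4.85 CPM (SD, n = 3) against 132 ± 63.0 CPM (SD, n = 2). The log2 fold change was -3.88 (SE 0.51, 95% interval -5.07 to -2.70). It had the smallest p of the 14784 genes, 8.91e-05, but its adjusted p was 1 in the edgeR quasi-likelihood test. That test called 0 genes (0%) in this comparison, 480 genes (3.25%) had an unadjusted p under 0.05, and limma voom also called 0. DESeq2 called 50 genes (0.338%), Nt5e among them at an adjusted p of 4.83e-09. Without the low-count filter edgeR called 1 gene of 21106 (0.00474%), Nt5e, at an adjusted p of 0.00039. Whether the difference passed thus depended on the test, while its direction was the same with each library left out (-4.42 to -3.25).

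Set against WT_NCD, whose mean was 242 ± 1.38 CPM (SD, n = 2), the KO_MCD mean of Nt5e was 3.70%. This log2 fold change was -4.76 (SE 0.52, 95% interval -5.98 to -3.53), again with the smallest p of all genes and an edgeR adjusted p of 0.203. Here edgeR called 0 genes (0%), with 1326 (8.97%) at an unadjusted p under 0.05, and limma voom called 0. DESeq2 called 562 (3.8%) and gave Nt5e an adjusted p of 7.38e-15. The comparison changes genotype and diet at once, so the 2 cannot be told apart in it.

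Among wild type mice Nt5e was lower on the deficient diet, without passing the test. The WT_MCD mean of 132 ± 63.0 CPM stood against 242 ± 1.38 CPM in WT_NCD (SD, n = 2 each), a log2 fold change of -0.87 (SE 0.53, 95% interval -2.12 to 0.37, edgeR adjusted p = 0.826). Leaving out WT_MCD replicate 2 gave -0.45, and leaving out WT_MCD replicate 1 gave -1.48. EdgeR called 0 genes (0%) between these diets, with 887 (6%) at an unadjusted p under 0.05, limma voom called 0, and DESeq2 called 315 (2.13%), Nt5e not among them. WT_MCD replicate 2, the lower of its pair in Nt5e, also had the lowest sum of the 8 pan T cell markers, 3427 CPM against 6586 CPM in WT_MCD replicate 1, and the highest macrophage sum. CD73 is also known on endothelial cells, whose 7 markers summed to 75.1 to 134 CPM in KO_MCD, 93.9 to 108 CPM in WT_MCD and 211 to 230 CPM in WT_NCD. It is known on stromal cells too, and 4 of the 6 stellate cell and fibroblast markers (Col3a1, Lrat, Pdgfrb and Reln) had no reads in any library. The part of endothelial RNA in the Nt5e level was not tested. In sorted bulk RNA, fewer cells of a type and less RNA per cell cannot be told apart.

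Levels were therefore also read per T cell marker count in the same library. Per 1000 counts of the 8 pan T cell markers, Nt5e had 1.501, 3.05 and 1.24 counts in KO_MCD, against 26.8 and 25.6 in WT_MCD and 39.9 and 30.1 in WT_NCD. On this scale the WT_MCD libraries lay close together, below both WT_NCD libraries and far above every KO_MCD library. The difference between KO_MCD and WT_MCD was -3.87 on the log2 scale (exact permutation test, two-sided, p = 0.2, the smallest that 3 against 2 allows). The difference between WT_MCD and WT_NCD was -0.41 (exact permutation test, two-sided, p = 0.333, the smallest that 2 against 2 allows). Per 1000 CD4 and Treg marker counts the diets overlapped, at 50.1 and 65.8 Nt5e counts in WT_MCD against 114 and 61.8 in WT_NCD. The diet difference in Nt5e was thus smaller per T cell marker than in CPM and depended on the markers used, whereas the knockout difference kept its size.

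**Figure D2:**
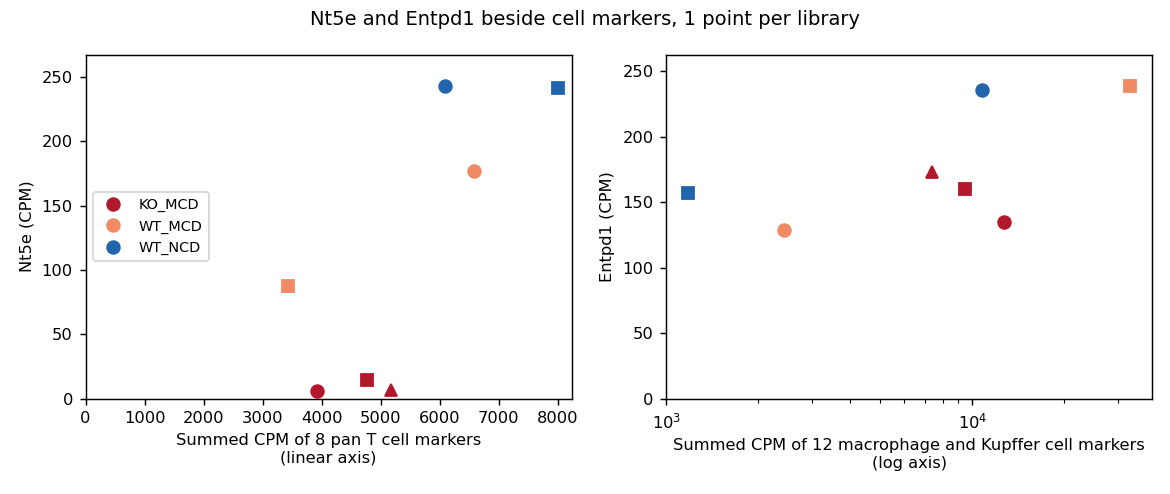
Left, Nt5e in CPM against the summed CPM of 8 pan T cell markers (linear axes). Right, Entpd1 in CPM (linear axis) against the summed CPM of 12 macrophage and Kupffer cell markers (log axis). Each point is 1 library, with circles, squares and the triangle for replicates 1, 2 and 3. The KO_MCD points lie at the bottom of the left panel at T cell marker sums of 3915 to 5179 CPM, and Entpd1 is highest, at 239 CPM, in the WT_MCD library with 32876 CPM of macrophage markers.

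Entpd1 (ENSMUSG00000048120; GRCm38 chr19:40612366-40741602, plus strand) encodes CD39, which makes the AMP that CD73 consumes. Its gene starts head to head with that of Tctn3, a ciliary transition zone gene, and the stretch between the 2 annotated starts is shown because both genes are read outward from it. The interval chr19:40612234-40612365, plus strand, is given from RefSeq (GRCm38.p6), with matches to the CCAAT box letters (CCAAT read on the plus strand, and read as ATTGG where it lies on the minus strand) in capitals.
Entpd1 and Tctn3 interval: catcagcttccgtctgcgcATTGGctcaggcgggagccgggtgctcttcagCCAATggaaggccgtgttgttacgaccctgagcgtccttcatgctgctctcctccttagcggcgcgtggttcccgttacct
It is 132 bases long with 61.4% G and C, and holds 2 matches, 1 on each strand. Of RefSeq promoter windows cut to the same length, 22.6% hold at least 1. The GC box (letters GGGCGG), a half-site of the cAMP response element (letters TGACG) and the TATA box (letters TATAAA) were searched on both strands with no match in the interval. These letters are held by 27.4%, 12.3% and 6.89% of the windows in the same order.

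Entpd1 did not differ detectably between the groups. It was read at 135, 160 and 173 CPM in KO_MCD, against 128 and 239 in WT_MCD and 236 and 157 in WT_NCD. The knockout libraries lay close together, and the wild type libraries spanned a wider range that enclosed them. KO_MCD averaged 156 ± 19.4 CPM (SD, n = 3) against 184 ± 78.1 CPM in WT_MCD (SD, n = 2), a log2 fold change of -0.24 (SE 0.35, 95% interval -1.05 to 0.58, edgeR adjusted p = 1). WT_MCD against WT_NCD (196 ± 56.0 CPM, SD, n = 2) gave -0.10 (SE 0.39, 95% interval -0.997 to 0.80, edgeR adjusted p = 1). KO_MCD against WT_NCD gave -0.33 (SE 0.35, 95% interval -1.15 to 0.48, edgeR adjusted p = 0.863). Neither sign of the first pair of comparisons held with each library left out, since Entpd1 was 0.28 in KO_MCD against WT_MCD without WT_MCD replicate 2, and 0.26 or 0.23 in WT_MCD against WT_NCD without WT_MCD replicate 1 or WT_NCD replicate 1. Tctn3 stood at 6.22, 4.76 and 7.86 CPM in KO_MCD, 3.77 and 8.66 in WT_MCD and 17.1 and 9.62 in WT_NCD, so WT_NCD was the highest group for Tctn3, and the other 2 groups overlapped.

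The spread of Entpd1 within the wild type groups moved with macrophage markers and with the marker sums of several other cell types. The libraries with the most Entpd1, WT_MCD replicate 2 at 239 CPM and WT_NCD replicate 1 at 236 CPM, had macrophage sums of 32876 and 10792 CPM, while their partners with 128 and 157 CPM of Entpd1 had sums of 2416 and 1179 CPM. The KO_MCD libraries did not follow this order, with 135 CPM of Entpd1 at the highest macrophage sum of the group, 12697 CPM, and 173 CPM at the lowest, 7408 CPM. Neutrophil and monocyte sums were also higher in the wild type libraries with more Entpd1, at 1116 and 246 CPM against 121 and 52.7 CPM in their partners. The NK cell, dendritic cell, hepatocyte and stellate cell sums went the same way in both pairs. Pan T cell, CD4 and Treg and endothelial sums went the other way in both, and the remaining lists differed between the pairs. CD39 is known on macrophages as well as on Treg. Per 1000 pan T cell marker counts Entpd1 had 34.4, 33.6 and 33.3 counts in KO_MCD, against 19.5 and 69.7 in WT_MCD and 38.8 and 19.6 in WT_NCD. The 3 knockout libraries were thus nearly equal on this scale, and the wild type pairs diverged more than in CPM. The log2 differences were -0.12 for KO_MCD against WT_MCD (exact permutation test, two-sided, p = 0.8) and 0.42 for WT_MCD against WT_NCD (exact permutation test, two-sided, p = 1). These signs rested on single libraries, since leaving out WT_MCD replicate 2 turned them to 0.79 and -0.50, and leaving out WT_NCD replicate 2 turned the diet difference to -0.07. The part of macrophage RNA, or of the RNA of these other cells, in the Entpd1 level was not tested.

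The ratio of the 2 transcripts within a library sets the last step of the chain against the first. There were 0.0436, 0.0908 and 0.0372 Nt5e counts per Entpd1 count in KO_MCD, against 1.38 and 0.367 in WT_MCD and 1.03 and 1.54 in WT_NCD. All KO_MCD ratios lay below all wild type ratios, and the wild type diets overlapped. The log2 difference was -3.75 for KO_MCD against WT_MCD (exact permutation test, two-sided, p = 0.2, the smallest possible) and -0.83 for WT_MCD against WT_NCD (exact permutation test, two-sided, p = 0.667). Without WT_MCD replicate 2 the diet difference was 0.13. The library with most macrophage markers therefore decided the sign of that ratio between diets.

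Enpp1 (ENSMUSG00000037370; GRCm38 chr10:24637914-24712159, minus strand) encodes an enzyme that splits ATP into AMP and pyrophosphate and also degrades the messenger cGAMP. It was the least abundant member per exon length in the wild type groups and was low in a single knockout library. Its values were 18.8, 23.6 and 6.57 CPM in KO_MCD, against 28.7 and 17.9 in WT_MCD and 33.1 and 26.6 in WT_NCD. KO_MCD replicate 3 stood below all other libraries, the KO_MCD and WT_MCD ranges overlapped, and all KO_MCD libraries lay below both WT_NCD libraries. KO_MCD averaged 16.3 ± 8.80 CPM (SD, n = 3) and WT_MCD 23.3 ± 7.69 CPM (SD, n = 2), with a log2 fold change of -0.51 (SE 0.59, 95% interval -1.90 to 0.88, edgeR adjusted p = 1). WT_MCD against WT_NCD (29.9 ± 4.60 CPM, SD, n = 2) gave -0.36 (SE 0.66, 95% interval -1.89 to 1.18, edgeR adjusted p = 1). KO_MCD against WT_NCD gave -0.87 (SE 0.59, 95% interval -2.25 to 0.51, edgeR adjusted p = 0.686). No difference in Enpp1 was detectable at this spread. Per 1000 pan T cell marker counts the groups overlapped, with 4.80, 4.97 and 1.27 counts in KO_MCD, 4.36 and 5.21 in WT_MCD and 5.45 and 3.32 in WT_NCD.

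Cd38 (ENSMUSG00000029084; GRCm38 chr5:43868553-43912375, plus strand) encodes the NAD glycohydrolase that opens the route to adenosine without CD39. It was the steadiest of the 5 genes, its highest library being 1.49 times its lowest, against 1.86 times for Entpd1, 2.56 for Entpd5, 5.04 for Enpp1 and 41.3 for Nt5e. Cd38 was read at 136, 163 and 134 CPM in KO_MCD, against 165 and 201 in WT_MCD and 144 and 149 in WT_NCD. The WT_MCD libraries were the 2 highest, just above KO_MCD replicate 2, and the KO_MCD range enclosed WT_NCD. KO_MCD averaged 145 ± 16.2 CPM (SD, n = 3) against 183 ± 25.3 CPM in WT_MCD (SD, n = 2), a log2 fold change of -0.34 (SE 0.25, 95% interval -0.92 to 0.25, edgeR adjusted p = 1). WT_MCD against WT_NCD (147 ± 3.34 CPM, SD, n = 2) gave 0.32 (SE 0.28, 95% interval -0.33 to 0.97, edgeR adjusted p = 0.916). KO_MCD against WT_NCD gave -0.02 (SE 0.25, 95% interval -0.61 to 0.57, edgeR adjusted p = 1), a value whose sign changed when the replicate number was added to the fit as a block (0.03) and without KO_MCD replicate 1 or 3, WT_MCD replicate 1 or WT_NCD replicate 2 (0.003 to 0.032). Read per 1000 pan T cell marker counts, Cd38 had 34.8, 34.3 and 25.9 counts in KO_MCD, 25.1 and 58.6 in WT_MCD and 23.7 and 18.6 in WT_NCD. On that scale both deficient-diet groups lay above WT_NCD in every library, which was not so in CPM. The pan T cell marker sum was itself lower in KO_MCD, at 3915 to 5179 CPM, than in WT_NCD, at 6083 to 8010 CPM. It was 6586 and 3427 CPM in WT_MCD, and its part in that order was not tested. Per 1000 CD4 and Treg marker counts the groups overlapped again, at 62.0, 66.6 and 50.8 in KO_MCD, 46.8 and 151 in WT_MCD and 67.7 and 38.2 in WT_NCD. Markers of NK and dendritic cells also stood higher on the deficient diet, while those of B and plasma cells and of endothelial cells did not. The 7 NK cell markers summed to 60.2 to 108 CPM in KO_MCD, 96.9 and 185 in WT_MCD and 15.3 and 5.11 in WT_NCD. The 5 dendritic cell markers summed to 168 to 666 CPM in KO_MCD, 166 and 339 in WT_MCD and 43.5 and 21.6 in WT_NCD. The 10 B and plasma cell markers summed to 1728 to 2868 CPM in KO_MCD, 2119 to 2460 in WT_MCD and 2861 to 3209 in WT_NCD. The 7 endothelial markers summed to 75.1 to 134 CPM in KO_MCD, 93.9 to 108 in WT_MCD and 211 to 230 in WT_NCD. The part of these cells in the Cd38 level was not tested.

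Entpd5 (ENSMUSG00000021236; GRCm38 chr12:84373857-84409029, minus strand) encodes a diphosphatase that acts mainly on UDP and GDP in the endoplasmic reticulum, where it supports glycoprotein folding, and that can be secreted. It starts head to head with Bbof1, a cilium gene. The 41 bases between the 2 annotated starts, chr12:84409030-84409070, are shown from RefSeq (GRCm38.p6) on the minus strand, the strand of Entpd5. A match to TGACG, a half-site of the cAMP response element, is in capitals.
Entpd5 and Bbof1 interval: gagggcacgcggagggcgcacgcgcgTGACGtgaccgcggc
G and C make up 80.5% of it. It holds 1 TGACG match, which 4.59% of RefSeq promoter windows cut to the same length also hold. The GC box, the CCAAT box and the TATA box, searched by the same letters, have no match there on either strand, and 13.0%, 6.75% and 3.09% of the windows hold them. Bbof1 was scarce, with 24 reads over all 7 libraries. Whether the Entpd5 transcripts start beside this interval cannot be read from gene totals.

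Entpd5 was the member most different between the diets in wild type mice by its p, without passing the test. Its levels were 67.9, 60.9 and 92.9 CPM in KO_MCD, against 58.2 and 69.0 in WT_MCD and 116 and 149 in WT_NCD. All 5 libraries on the deficient diet lay below both WT_NCD libraries, and the genotypes overlapped. WT_MCD averaged 63.6 ± 7.60 CPM against 133 ± 23.5 CPM in WT_NCD (SD, n = 2 each), or 47.9%, with a log2 fold change of -1.06 (SE 0.34, 95% interval -1.86 to -0.26). Its unadjusted edgeR p was 0.0160, rank 304 of 14784 genes, and its adjusted p was 0.773. KO_MCD, at 73.9 ± 16.8 CPM (SD, n = 3), gave -0.85 against WT_NCD (SE 0.30, 95% interval -1.56 to -0.13, unadjusted p = 0.0259, edgeR adjusted p = 0.507). KO_MCD against WT_MCD gave 0.22 (SE 0.31, 95% interval -0.51 to 0.94, edgeR adjusted p = 1). The first pair of differences kept its sign with each library left out, at -1.23 to -0.86 for WT_MCD and -1.04 to -0.65 for KO_MCD, both against WT_NCD. DESeq2 gave adjusted p-values of 0.169 and 0.227 for the WT_MCD and KO_MCD comparisons with WT_NCD.

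Relative to T cell markers the wild type diets overlapped in Entpd5, while KO_MCD stayed below WT_NCD. For each 1000 pan T cell marker counts Entpd5 had 17.3, 12.8 and 17.9 counts in KO_MCD, against 8.84 and 20.1 in WT_MCD and 19.1 and 18.6 in WT_NCD. WT_MCD replicate 1 was the lowest and WT_MCD replicate 2 the highest of all, and every KO_MCD library lay below both WT_NCD libraries. The gap was narrow, at 17.9 against 18.6 for the closest libraries, and counting error was not carried into these ratios. Per 1000 CD4 and Treg marker counts there were 30.9, 24.8 and 35.2 in KO_MCD, 16.5 and 51.8 in WT_MCD and 54.6 and 38.3 in WT_NCD, with the same overlap and the same separation. The T cell marker sum itself was lower in KO_MCD, at 3915, 4762 and 5179 CPM, than in WT_NCD, at 6083 and 8010 CPM. Its part in the Entpd5 difference was not tested.

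**Figure D3:**
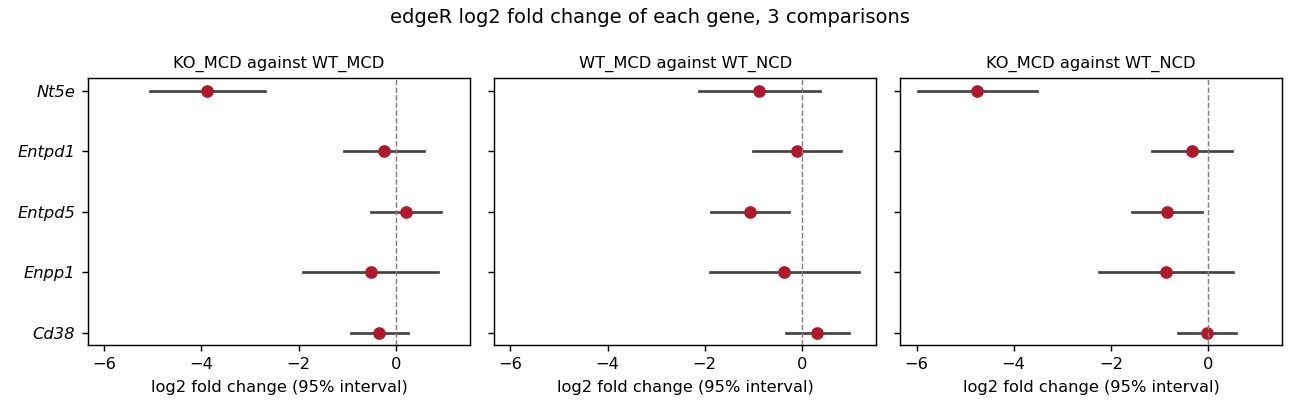
Log2 fold change of each of the 5 genes in KO_MCD against WT_MCD, WT_MCD against WT_NCD and KO_MCD against WT_NCD. Points are edgeR estimates and lines their 95% intervals, unadjusted for the number of genes. The Nt5e intervals of both knockout comparisons lie wholly below -2, the Entpd5 intervals of both comparisons with WT_NCD lie below 0, and all other intervals cross 0.

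As a group the 5 genes gave no call in the edgeR test in any comparison (0% of all genes being called in each). At an unadjusted p under 0.05, 1 of 5 was lower and 0 were higher in KO_MCD against WT_MCD, where 2.04% of all tested genes were lower and 1.2% higher. In WT_MCD against WT_NCD 1 of 5 was lower and 0 were higher, beside 2.04% and 3.96% of all genes. In KO_MCD against WT_NCD 2 of 5 were lower and 0 were higher, beside 4.25% and 4.72% of all genes. With groups that did not overlap, 2 of 5 members were lower and 0 higher in the first comparison (9.66% and 8.37% of all genes), 2 lower and 1 higher in the second (14.8% and 16.8%), and 3 lower and 0 higher in the third (12.8% and 13.4%). The genes that set these counts were Nt5e throughout, Cd38 in the first, Entpd5 and Cd38 in the second, and Entpd5 and Enpp1 in the third. The median log2 fold change of the members was -0.34, -0.36 and -0.85 in the 3 comparisons, against -0.03, 0.04 and 0.06 over all tested genes. The deleted gene is among the 5, so the KO_MCD values are partly set by the genotype.

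Across the 7 libraries the members did not vary as a block. Pearson's r of log2 CPM was highest for Nt5e with Enpp1, at 0.703 (Spearman's rho 0.786), and lowest for Entpd5 with Cd38, at -0.415 (rho -0.393). Nt5e with Entpd1, the enzymes of successive steps, gave 0.305 (rho 0.179), and Entpd1 with Enpp1 gave -0.014 (rho -0.286). These values describe 7 libraries from 3 groups that share depth and cell makeup and carry no p.

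The genes most like each member, out of 9087 tested protein-coding genes averaging at least 5 CPM, were named by the highest Pearson's r of log2 CPM over the same 7 libraries. A pattern that such a gene shares with its member follows from this choice and is not separate evidence. For Nt5e the nearest genes were Gsk3b, a signalling kinase (r 0.977, rho 0.929), Nfs1, a mitochondrial cysteine desulfurase (0.965, 0.893), and Eme1, part of a structure-specific nuclease in DNA repair (0.962, 0.889). Gsk3b was read at 98.0, 101 and 94.1 CPM in KO_MCD, against 169 and 149 in WT_MCD and 176 and 154 in WT_NCD, and Eme1 had no reads in the 3 KO_MCD libraries. Eme1 and Nfs1 share exon bases with other annotated genes, and without a stated strand setting their reads cannot be told apart from those of their neighbours. For Entpd1 the nearest were Hagh, a glyoxalase (0.958, 0.929), D1Ertd622e (0.949, 1) and Vsig4, a receptor of Kupffer cells and one of the 12 macrophage markers (0.948, 0.893). Vsig4 had 14.7, 12.6 and 20.3 CPM in KO_MCD, against 10.7 and 118 in WT_MCD and 75.2 and 18.2 in WT_NCD, high in the same 2 libraries as Entpd1.

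For Entpd5 the nearest genes were Tsc22d3, a glucocorticoid-induced leucine zipper gene (r 0.978, rho 0.821), Tinf2, a telomere shelterin gene (0.973, 1), and Prkcq, the protein kinase C of T cell receptor signalling (0.972, 0.893). Prkcq had 135, 149 and 196 CPM in KO_MCD, against 144 and 171 in WT_MCD and 264 and 340.1 in WT_NCD. It thus shared with Entpd5 the order of the groups, with WT_NCD above both others. Enpp1 was nearest to Rrnad1 (0.994, 0.964), Retreg1, an endoplasmic reticulum autophagy receptor (0.989, 0.964), and Lrrc20 (0.985, 0.857). Retreg1 too was lowest in KO_MCD replicate 3, at 31.0 CPM, against 61.8 and 78.4 CPM in the other KO_MCD libraries. Cd38 was nearest to Akt1, a kinase of the PI3K pathway (0.963, 0.929), Gfer, a mitochondrial sulfhydryl oxidase (0.957, 0.857), and Dnajb11, an endoplasmic reticulum co-chaperone (0.956, 0.964). Tinf2, Rrnad1 and Lrrc20 also share exon bases with another annotated gene.

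Other genes listed with the ectonucleotidases and NAD-consuming ectoenzymes were mostly scarce. Not all of them act on extracellular nucleotides or NAD, Cant1 being a Golgi enzyme. Of 26 such genes listed, 25 were found, 16 had a read and 9 had none: Entpd2, Entpd4, Entpd8, Enpp3, Enpp7, Alpi, Akp3, Alppl2 and Art1. Entpd4 and Entpd4b are near-identical copies and Art2b has a close paralog, so their reads may be split or lost in counting. Of the 13 tested, edgeR called 0, and the log2 fold change was above 0 for 6 and below 0 for 7 in KO_MCD against WT_MCD (median -0.05). It was above 0 for 8 and below 0 for 5 in WT_MCD against WT_NCD (median 0.24), and for 8 and 5 in KO_MCD against WT_NCD (median 0.03). The 3 with the highest mean CPM over all libraries were Art2b (71.7), a T cell surface ADP-ribosyltransferase, Cant1 (50.7), a Golgi nucleotidase, and Enpp5 (30.1), a relative of Enpp1. CPM is not scaled by gene length, so these means say nothing of the order per length, which the plot of ectoenzyme levels shows.

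Within that list Alpl and Art2b were the genes with an unadjusted p under 0.05. Of the 13 tested, 1 was higher and 1 lower at that p in WT_MCD against WT_NCD (3.96% and 2.04% of all genes). In KO_MCD against WT_NCD 1 was higher and 0 were lower (4.72% and 4.25% of all genes). In KO_MCD against WT_MCD 0 were higher and 0 lower (1.2% and 2.04% of all genes). Alpl, tissue-nonspecific alkaline phosphatase, can also turn AMP into adenosine. It had 126, 111 and 121 reads in KO_MCD, against 1 and 63 reads in WT_MCD and 0 and 0 reads in WT_NCD. All 3 knockout libraries were therefore above all wild type libraries. Of all tested genes, 8.37% were likewise higher without overlap in KO_MCD against WT_MCD, and 13.4% in KO_MCD against WT_NCD. Against the floor of 3 reads over the group, Alpl was at least 80.7-fold higher in KO_MCD than in WT_NCD (unadjusted p = 0.00958, edgeR adjusted p = 0.416) and at least 22.6-fold higher in WT_MCD than in WT_NCD (unadjusted p = 0.0182, edgeR adjusted p = 0.775). The second bound rests on WT_MCD replicate 2, without which WT_MCD had 1 read, under the floor, and no bound was left. The first was 77.3 to 85.2 without any 1 KO_MCD library, and 37.1 to 43.6 without 1 WT_NCD library, when the floor of 3 reads stands over the other alone. Both bounds cover counting error only, not the spread among libraries. KO_MCD against WT_MCD gave 1.75 (SE 1.75, edgeR adjusted p = 1). The neutrophil and monocyte markers, 8 genes of which none was at 0 throughout, summed to 198 to 321 CPM in KO_MCD, 121 and 1116 in WT_MCD and 52.7 and 246 in WT_NCD. Alkaline phosphatase is known in neutrophils, and their part in the Alpl reads was not tested. Art2b was read at 33.1 and 20.0 CPM in WT_MCD, against 54.6 and 233 CPM in WT_NCD, a log2 fold change of -2.44 (SE 0.81, unadjusted p = 0.0183, edgeR adjusted p = 0.775), with 55.1, 81.9 and 23.9 CPM in KO_MCD overlapping both.

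**Figure D4:**
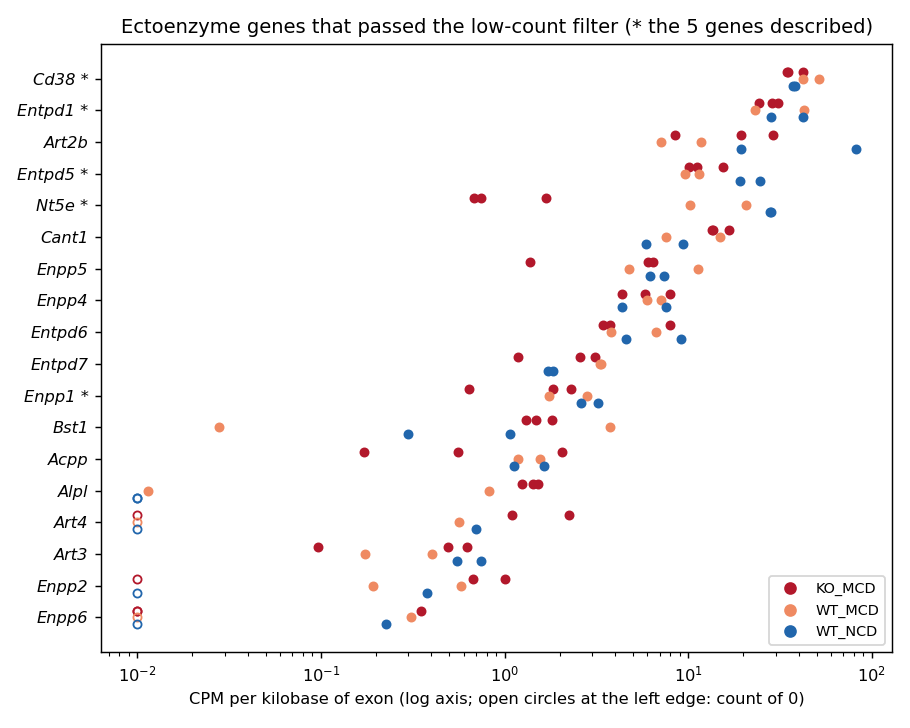
Level per exon length (CPM per kb, log axis) of the 5 members and of the 13 other listed ectoenzyme genes that passed the low-count filter, ordered by their mean over 7 libraries. Each point is 1 library of KO_MCD, WT_MCD or WT_NCD, and an open circle marks a library with no reads. Cd38 and Entpd1 lead the order, and Nt5e is the member whose KO_MCD points lie farthest from its wild type points.

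Genes listed as intracellular 5'-nucleotidases, enzymes that remove phosphate from AMP or other monophosphates inside the cell, gave no call either. Whether each listed gene, Nt5dc1 among them, encodes this activity was not examined here. Of 10 listed, 8 had a read and 7 were tested, with 0 called by edgeR in each comparison. The log2 fold change was above 0 for 2 and below 0 for 5 in KO_MCD against WT_MCD (median -0.14), and above 0 for 3 and below 0 for 4 in WT_MCD against WT_NCD (median -0.11). In KO_MCD against WT_NCD 2 were above and 5 below (median -0.39). By mean CPM Nt5c3b (167), Nt5dc1 (54.1) and Nt5c3 (50.7) led the list. Nt5c2, the cytosolic nucleotidase for IMP and GMP, was read at 61.4, 58.4 and 61.5 CPM in KO_MCD, against 29.5 and 58.8 in WT_MCD and 18.3 and 34.3 in WT_NCD. KO_MCD lay above WT_NCD in every library, as it did for 13.4% of all tested genes. The log2 fold change was 1.202 (SE 0.45, unadjusted p = 0.0296, edgeR adjusted p = 0.525). At an unadjusted p under 0.05, 1 of 7 was higher and 0 were lower in this comparison (4.72% and 4.25% of all genes). KO_MCD against WT_MCD and WT_MCD against WT_NCD gave 0 of 7 (3.25% and 6% of all genes). Nt5c2, Nt5c3b and Nt5dc1 share some exon bases with other annotated genes.

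Genes listed as adenosine receptors, transporters and enzymes gave 0 edgeR calls among 17 tested of 20 listed. The list is not limited to steps after CD73, since it includes AMP deaminases and Ahcy. In KO_MCD against WT_MCD 6 were above 0 and 11 below (median -0.24), in WT_MCD against WT_NCD 9 and 8 (median 0.18), and in KO_MCD against WT_NCD 6 and 10 (median -0.08). Those with the highest mean CPM were Adk (208 CPM), the kinase that returns adenosine to AMP, Adora2a (167 CPM), the main adenosine receptor of T cells, and Slc29a1 (143 CPM), an adenosine transporter that shares exon bases with a predicted gene without reads. Adora2a stood at 161, 206 and 133 CPM in KO_MCD, against 203 and 115 in WT_MCD and 215 and 138 in WT_NCD, and the groups overlapped. Adk stood at 118, 141 and 109.8 CPM in KO_MCD, against 118 and 138 in WT_MCD and 345 and 485 in WT_NCD. Like Entpd5, Adk was below both WT_NCD libraries in all 5 libraries on the deficient diet, with log2 fold changes of -1.76 in KO_MCD (SE 0.27, edgeR adjusted p = 0.203) and -1.70 in WT_MCD (SE 0.31, edgeR adjusted p = 0.548), both against WT_NCD. Of all tested genes, 12.8% in KO_MCD and 14.8% in WT_MCD were likewise below WT_NCD without overlap.

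Several scarcer genes of this group also had an unadjusted p under 0.05, and none passed after adjustment. Over the 17 tested, 1 was higher and 2 lower at that p in KO_MCD against WT_MCD (1.2% and 2.04% of all genes). In WT_MCD against WT_NCD 3 were higher and 3 lower (3.96% and 2.04% of all genes). In KO_MCD against WT_NCD 1 was higher and 4 were lower (4.72% and 4.25% of all genes). Adora2b, a low-affinity adenosine receptor, had 80, 118 and 355 reads in KO_MCD and 74 and 478 in WT_MCD, against 0 and 0 in WT_NCD, at least 125-fold and at least 195-fold higher than WT_NCD. Without KO_MCD replicate 3 the KO_MCD bound was 66.6-fold, and without WT_MCD replicate 2 the WT_MCD bound was 49.4-fold. Without 1 WT_NCD library they were 57.2 to 67.4-fold and 89.7 to 106-fold. These bounds cover counting error only, and libraries of a group differed by more than that. The edgeR adjusted p of Adora2b was 0.320 for KO_MCD and 0.548 for WT_MCD, both against WT_NCD. Like Adora2b, the NK and dendritic cell marker sums were lowest in WT_NCD, and their part in the Adora2b and Alpl reads was not tested. Adora3, another adenosine receptor, had 0 reads in KO_MCD, against 28 and 39 in WT_MCD and 0 in WT_NCD, and shares exon bases with Tmigd3. Slc29a2, a nucleoside transporter, had 0 reads in the 3 KO_MCD libraries, against 110 and 212 in WT_MCD and 154 and 0 in WT_NCD. The 3 KO_MCD libraries and WT_NCD replicate 2 were thus alike for Slc29a2, and WT_NCD replicate 1 alone set WT_NCD apart from KO_MCD. Slc28a2, a concentrative purine nucleoside carrier, was lower than WT_NCD in both other groups, with log2 fold changes of -0.95 in KO_MCD (SE 0.35) and -1.37 in WT_MCD (SE 0.40). Ahcy, which releases adenosine from S-adenosylhomocysteine, was -1.18 in KO_MCD against WT_NCD (SE 0.42). Slc29a3, a lysosomal nucleoside transporter, was 1.45 in WT_MCD against WT_NCD (SE 0.53). Ampd1, an AMP deaminase, had 7, 42 and 71 reads in KO_MCD, against 0 and 0 in WT_MCD and 45 and 123 in WT_NCD.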

How the data were processed

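A table of raw counts for 53465 Ensembl IDs in the 7 libraries was deposited. Per the submitters' processing notes, the aligner was HISAT2 2.1.0 and the build GRCm38. How reads were counted (tool, annotation, strand) is not stated in the sources used here. GENCODE M21 named 53360 IDs and left 105 unnamed, and 21106 IDs had a count. The test was edgeR's quasi-likelihood test, version 4.0.16 under R 4.3.3 (TMM, filterByExpr with a minimum count of 10, 1 coefficient per group, all 7 libraries), with Benjamini-Hochberg adjustment over 14784 genes and a threshold of 0.05. Libraries of a group differed far beyond sampling noise (chi-square of 88.7 to 320.1 per degree of freedom), with a common dispersion of 0.833 (91.3% coefficient of variation). A standard error is the log2 fold change over the square root of F. Log2 CPM used a prior count of 2. Ratios were compared by exact permutation tests. "At least" folds use a floor of 3 counts over the group and cover counting error only. The script was tested on simulated counts. Members, lists and tests were chosen with earlier results of these data known. From the pathway lists, the text names the 3 genes with the highest mean CPM and those with an unadjusted p under 0.05. Intervals between gene starts, and the motifs searched, were chosen after the values were seen. Alternatives were RLE scaling, no low-count filter, DESeq2 1.42.0, limma 3.58.1 voom, a replicate block, the 2 groups alone, CD4 and Treg markers as the base of ratios, each library left out, and, chosen after seeing the data, the mean of both wild type groups, a crossed block and bounds on folds without each library.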

Additional observations from a re-analysis of the deposited data

How the results depend on the processing

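Of 144 recomputed values of 25 results, 128 kept their direction and their side of the threshold, or, for counts, lay within 1.5 times the first value, as did 163 of 174 values of 27 results with 1 library left out. Nt5e per Entpd1 was recomputed only with libraries left out. Genes called by edgeR numbered 0 in each comparison. DESeq2 called 50, 315 and 562 and edgeR without the low-count filter 1, 54 and 140 in KO_MCD against WT_MCD, WT_MCD against WT_NCD and KO_MCD against WT_NCD. In both knockout comparisons each of these fits called 1 member, Nt5e. It was -3.87 by DESeq2 and -3.88 unfiltered (adjusted p = 0.00039) against WT_MCD, and -4.74 and -4.76 (adjusted p = 1.83e-05) against WT_NCD. The cause was not tested. Against the mean of both wild type groups, Entpd5 turned to -0.31 and Nt5e was -4.32 (adjusted p = 0.471). With the replicate number as a block, Nt5e in KO_MCD against WT_MCD was -3.72 and 0 genes were called in any comparison. Only Cd38 in KO_MCD against WT_NCD turned sign under the block, to 0.025. Same-numbered libraries showed no shared deviation (r -0.102 to 0.030 over 6 pairs). In a group of 2 libraries the deviations mirror each other, so the 6 values are not independent. They cannot settle whether the numbers pair samples, and the labels do not say. A crossed block on the wild type groups also called 0 genes.

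With each library left out, no gene was called. The log2 fold changes in KO_MCD against WT_MCD ran from -4.42 to -3.25 for Nt5e, -0.58 to 0.28 for Entpd1, 0.02 to 0.34 for Entpd5, -0.88 to -0.09 for Enpp1 and -0.44 to -0.19 for Cd38. In WT_MCD against WT_NCD they ran from -1.48 to -0.45, -0.61 to 0.26, -1.23 to -0.86, -0.76 to -0.05 and 0.17 to 0.44 in the same order of genes. In KO_MCD against WT_NCD they ran from -5.30 to -4.53, -0.59 to -0.01, -1.04 to -0.65, -1.24 to -0.49 and -0.11 to 0.032. Nt5e per pan T cell marker ran from -4.26 to -3.61 for KO_MCD against WT_MCD and -0.61 to -0.20 for WT_MCD against WT_NCD. Entpd1 per pan T cell marker ran from -1.04 to 0.79 and -0.50 to 1.34, and Nt5e per Entpd1 from -4.70 to -2.80 and -1.78 to 0.13. The smallest count of a member in a library was 121 reads.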
